A study of Mus musculus with 583 samples.

Results

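Cells with much and with little metallothionein RNA were compared within libraries of mouse embryonic stem cells. The cells were chosen by a measured value, the share of a cell's endogenous counts that came from Mt1 and Mt2 together, ranked within each of 12 libraries, and the upper and lower of 3 equal parts were kept. This gave 191 high cells and 191 low cells of 583 in all, with 201 cells between them. All cells were J1 embryonic stem cells of the mouse, an established line, grown in 2i/LIF medium, which holds such cells in naive pluripotency. High and low cells of a library shared genotype, medium and preparation, and no other treatment was labelled. The 12 libraries came from 6 single-cell methods, each with replicate libraries A and B. Full-length methods, whose values are reads, made 4 libraries (Smart-seq2 and Smart-seq / C1). The other 8 came from methods that read the 3′ end of a transcript and count molecules by a unique identifier (UMI): Drop-seq, SCRB-seq, MARS-seq and CEL-seq2. The labels do not say whether A and B were separate cultures, so the spread between libraries may be partly technical.

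Metallothioneins are small cysteine-rich proteins that bind zinc, copper and cadmium and buffer their free ions. Transcription of Mt1 and Mt2 is driven by MTF1, a zinc-finger factor that senses free zinc and binds metal response elements in their promoters. The same factor acts on Slc30a1, which encodes ZnT1, the transporter that exports zinc from the cell. Mt1 and Mt2 also respond to oxidative stress, glucocorticoids and hypoxia. Lists of zinc, redox, stress, metabolic, pluripotency and cell cycle genes were therefore read beside them.

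Mt1 (ENSMUSG00000031765, chr8:94179082-94180327) and Mt2 (ENSMUSG00000031762, chr8:94172664-94173568) lie side by side on the plus strand of mouse chromosome 8 (GRCm38). The 250 bases before the RefSeq start are shown for both genes and for Slc30a1 (ENSMUSG00000037434, chr1:191906767-191913247), because these 3 genes carry the textbook link between zinc and metallothionein. All are from the RefSeq table of build GRCm38.p6 and lie on the plus strand, written 5′ to 3′. Capitals mark each match to the core of the metal response element, TGCACNC or TGCGCNC, on either strand. The windows are chr8:94178839-94179088, chr8:94172368-94172617 and chr1:191906531-191906780.
Mt1: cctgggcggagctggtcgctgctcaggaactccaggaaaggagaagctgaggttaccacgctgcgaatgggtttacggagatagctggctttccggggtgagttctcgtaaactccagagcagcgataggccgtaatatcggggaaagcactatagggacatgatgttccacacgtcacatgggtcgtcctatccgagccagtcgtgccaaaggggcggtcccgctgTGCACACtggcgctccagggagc
Mt2: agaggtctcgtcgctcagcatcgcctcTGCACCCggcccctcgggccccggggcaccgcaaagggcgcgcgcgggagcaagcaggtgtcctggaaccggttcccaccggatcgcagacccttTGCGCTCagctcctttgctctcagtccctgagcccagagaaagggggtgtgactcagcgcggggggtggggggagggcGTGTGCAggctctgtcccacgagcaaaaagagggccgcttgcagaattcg
Slc30a1: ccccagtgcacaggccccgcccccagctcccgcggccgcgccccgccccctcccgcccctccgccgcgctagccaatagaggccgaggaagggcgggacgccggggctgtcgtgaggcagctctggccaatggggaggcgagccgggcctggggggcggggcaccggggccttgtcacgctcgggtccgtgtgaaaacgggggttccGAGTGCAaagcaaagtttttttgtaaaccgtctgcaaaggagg
The window of Mt1 held 1 match, that of Mt2 held 3 and that of Slc30a1 held 1, with no overlap between matches. The windows of Mt1 and Slc30a1 end past the gene starts given above, and that of Mt2 ends before it. Bases outside the windows were not searched, so these are not counts of all metal response elements of a gene. Of 32851 promoter windows of this length, 21.4% held at least 1 match, 5.17% at least 2 and 1.26% at least 3. A match is a description of the letters, not a measured binding site. The window of Mtf1 itself, the gene of the zinc sensor, held 0 matches.

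Mt1 and Mt2 values chose the cells, so they are given only as a description. The median share of the 2 genes in high cells ran from 0.0763% of endogenous counts in Smart-seq / C1 B to 0.607% in MARS-seq A. In low cells it ran from 0.0196% in Smart-seq / C1 B to 0.230% in SCRB-seq A. The ratio of these medians was widest in Smart-seq2 B, at 10.1, and in Smart-seq2 A, at 7.60. It was narrowest in SCRB-seq, at 1.83 in A and 1.82 in B, and in Drop-seq B, at 2.00. The remaining 7 libraries lay between 3.07 and 6.47. The contrast between high and low cells was therefore several times larger in Smart-seq2 than in SCRB-seq.

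**Figure D1:**
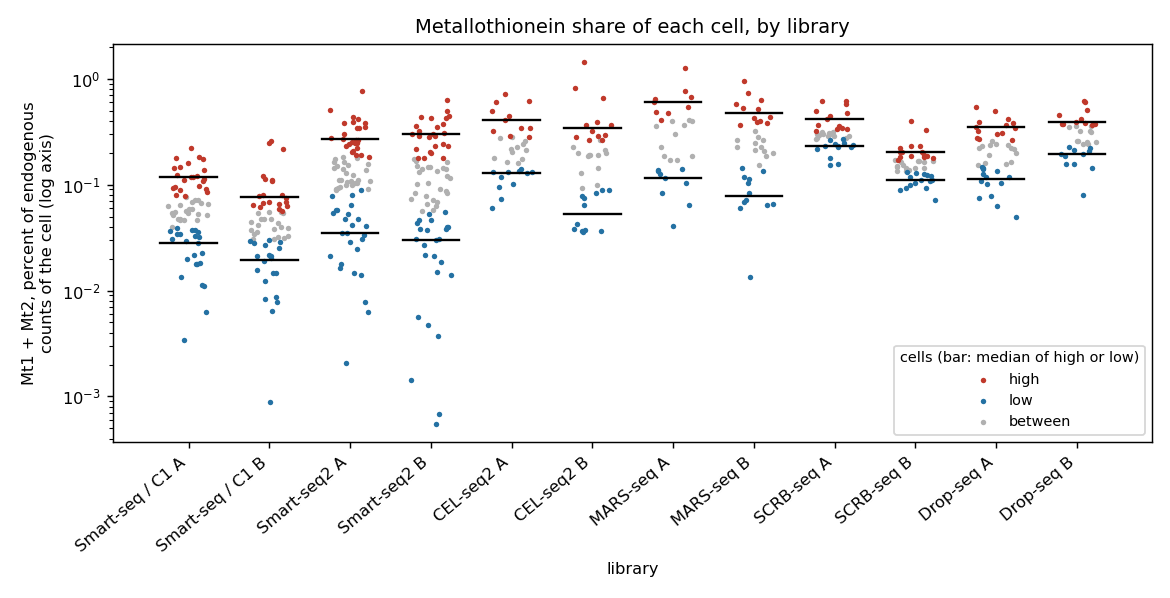
Share of each cell's endogenous counts from Mt1 and Mt2 (vertical log axis, percent) by library (horizontal axis), 1 point per cell, coloured as high, low or between, with bars at the medians of high and low cells. The high and low medians are 10.1-fold apart in Smart-seq2 B and 1.82-fold apart in SCRB-seq B, and the points run on across the thresholds.

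High and low cells are ranges of a continuous measure, not cell types. In Smart-seq2 A the lowest high cell had a share of 0.184% and the highest cell between had 0.181%. In SCRB-seq A the highest low cell and the lowest cell between were both at 0.267%. The widest step at the upper threshold was in MARS-seq B, with 0.369% in the lowest high cell and 0.319% below it, and at the lower one in MARS-seq A, with 0.140% in the highest low cell and 0.169% above it. Of the 583 cells, 157 lay within 10% of either threshold, of which 43 were in the 2 SCRB-seq libraries.

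Mt1 and Mt2 moved together from cell to cell. Spearman's rho between their shares was lowest in Drop-seq B (0.353 over 34 cells) and highest in Smart-seq2 A (0.919 over 80 cells). The cells of a library share its depth, and both shares have the same denominator, so no p-value is given. When cells were ranked by Mt1 alone, the level of Mt2 in high cells was 1.503 to 7.99 times that in low cells (median 3.40, higher in 12 of 12 libraries). Ranked by Mt2 alone, the corresponding ratio of Mt1 was 1.44 to 10.4 (median 3.61, higher in 12 of 12 libraries). In the 8 UMI libraries the scatter of Mt1 plus Mt2 counts over cells was 8.34 (Drop-seq B) to 248 (CEL-seq2 B) times what counting error alone gives. A median low cell carried 20 Mt1 plus Mt2 UMIs in MARS-seq B and 101 in SCRB-seq A, and no low cell was without a count. The balance of the 2 genes depended on the library: MARS-seq had more Mt2 (0.264% and 0.219% of all counts) than Mt1 (0.0695% and 0.0637%), while Smart-seq2 had less Mt2 (0.0617% and 0.0572%) than Mt1 (0.0959% and 0.0907%). The neighbours Mt3 and Mt4 were near absent, with 452 and 99 counts over all cells against 92454 for Mt1 and 61340 for Mt2, and did not pass the filter for testing.

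Some facts of the libraries touch all results. The summed counts of a group of high or low cells ranged from 165870 to 11429894, and no cell had fewer than 10184 counts. In Drop-seq, 29 of 42 barcodes in A and 12 of 34 in B were 1 base away from another one in that library. That base was either substituted or lost, and after a loss the rest of the barcode moves up by 1. Joined, they left 25 and 28 cells, and no joined set held both a high and a low barcode. Libraries A and B of a method had 19 (MARS-seq) to 66 (Smart-seq2) barcodes in common, and 0 in Drop-seq. Counts per cell had a median that was lower in high cells in 9 of 12 libraries, by a mean of -0.0421 ± 0.0520 on the log2 scale (SD, 12 libraries, exact sign-flip permutation test, two-sided, p = 0.00977, adjusted over 5 measures p = 0.0488). That call was lost under every other way of ranking and summarising cells, without the Drop-seq libraries, and without 9 of the 12 libraries in turn (all but Smart-seq2 A, CEL-seq2 B and Drop-seq B), and its sign turned when cells were ranked by Mt1 alone. With cells thinned to 10000 counts edgeR called 0 of 2458 genes (108 at an unadjusted p below 0.05), and with cells ranked within depth classes 0 of 7606 (306). The spike-in share of all counts was 0.646 ± 1.45 percentage points higher in high cells (SD, exact permutation p = 0.113, adjusted p = 0.282). That difference was 0.285 percentage points without Smart-seq2 B, where it was 4.61, and 0.814 without Smart-seq2 A (exact permutation p = 0.0293, adjusted p = 0.0732). Drop-seq held almost no spike-ins, with median shares from 0.0087% to 0.0366%. Without Drop-seq the difference was 0.774 percentage points (exact permutation p = 0.117, adjusted p = 0.293). Genes detected at 10000 counts per cell differed by 9.54 ± 103 genes, the mitochondrial share by 0.0971 ± 0.675 percentage points and the ribosomal protein share by -0.0580 ± 0.472 percentage points (SD, 12 libraries, each with an adjusted p of 0.755 by the same exact test).

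Both groups carried the markers of naive embryonic stem cells. With each cell thinned to 10000 counts, Nanog was detected in 182 of 191 high and 183 of 191 low cells, Zfp42 in 180 and 187, Dppa5a in 185 and 186, and Klf4, the least often seen of 8 markers, in 109 and 103. Without thinning these 8 markers were seen in 174 to 191 of 191 cells of either group. Lists of genes that mark other states were summed in both groups. The summed level of the primed pluripotency list ranged from 412 to 2354 CPM, the usual depth-scaled unit, in the high cells of the 12 libraries and from 357 to 2385 in the low cells. The summed primitive endoderm list ranged from 563 to 2014 CPM in high and 440 to 1626 in low cells, with 1 of 22 genes (Ttr) at 0. The trophectoderm list reached 328 and 308 CPM, with 1 of 14 genes (Tpbpa) at 0. The 2-cell-like list ranged from 0 to 1496 CPM in high and 0 to 1344 in low cells, with medians of 12.3 and 12.5. Fibroblast genes reached 1015 and 890 CPM, with medians of 615 and 607. Of the 14 fibroblast genes 2 (Postn and S100a4) were at 0, and 2 (Fn1 and Vim) passed the filter for testing. Blood genes reached 136 and 133 CPM, with 4 of 10 genes (Ptprc, Hbb-bt, Lyz2 and Tyrobp) at 0. Neural and mesendoderm lists stayed at or under 182 CPM in every library.

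No gene other than the 2 used for ranking differed between high and low cells at an adjusted p below 0.05. The counts were summed over the high and over the low cells of each library and tested with edgeR's quasi-likelihood method, paired by library. Of 7661 genes tested, 0 passed (0% called). At an unadjusted p below 0.05 there were 327 genes (4.27%), of which 140 (1.83%) were higher and 187 (2.44%) lower in high cells. Over all genes 3653 log2 folds were positive and 4008 negative. The same sign in at least 10 of 12 libraries was found for 140 genes that were higher (1.83%) and 197 that were lower (2.57%). Genes described below without an adjusted p had one of at least 0.9996 in this edgeR fit. DESeq2 also called 0 genes (410 at an unadjusted p below 0.05), and so did limma on mean log2(CPM + 1) over cells (369). One setting of the same edgeR test gave another count. With bias-adjusted deviances, an option added after the results had been seen, 47 genes passed (0.613% called), 25 higher and 22 lower. That fit had 1125 genes at an unadjusted p below 0.05, against 327 in the main fit. Without a filter on low counts edgeR called 2 of 25489 genes. These were mt-Co1, a mitochondrially encoded subunit of cytochrome oxidase, at -0.27 on the log2 scale, and 1700013H16Rik at 1.74. With the filter mt-Co1 was also tested, at -0.25, and did not pass.

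The fits bounded most differences closely. The median standard error of a log2 fold was 0.17. The 95% interval lay inside a 2-fold change in either direction for 7483 of 7661 genes (97.7%) and inside a 1.5-fold change for 5338 (69.7%). Of 2267 genes below an average of 5 log2 CPM, 25.8% were bounded within 1.5-fold, against 99.7% of the 664 genes above 8. A difference above 1.5-fold was therefore outside the interval for nearly every highly expressed gene, and inside it for most weak genes. The procedure did make calls with other rankings of the same cells, chosen after the results had been seen: 69 of 7609 genes with cells ranked by 55 G2/M genes and 8 of 7608 with cells ranked by Lefty1 and Lefty2, the ranking genes left out each time.

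The zinc exporter Slc30a1 had the smallest p of the zinc genes. In high cells its level was 4.63 CPM in the lowest library, 25.8 in the median and 136 in the highest, and in low cells it was 0, 14.6 and 76.6 CPM. The level was above that of the paired low cells in 10 of 12 libraries, and below it in CEL-seq2 A (58.3 against 76.6 CPM) and Drop-seq B (26.3 against 43.4 CPM). The ranges of the groups overlapped. The fitted log2 fold was 0.74 ± 0.25 (SE, as for all log2 folds below), a 1.67-fold difference with a 95% interval of 1.18 to 2.35, and edgeR's quasi-likelihood p was 0.00479 before and 0.9996 after adjustment over all genes. With bias-adjusted deviances the adjusted p was 0.0226, and with DESeq2 it was 0.677. Counts were few: from 4 UMIs in high against 0 in low cells of MARS-seq B to 190 against 82 reads in Smart-seq / C1 A. In SCRB-seq the groups were nearly even, with 17 against 16 UMIs in A and 19 against 19 in B. In 25 alternative fits the log2 fold stayed positive, from 0.39 to 1.15. An exon of 1700034H15Rik overlaps Slc30a1 on the opposite strand, and whether the counting used strand is not given in the sources used here, so reads of the pair cannot be told apart.

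Other zinc transporters showed no common direction. Of 24 genes of the SLC30 exporter and SLC39 importer families, 11 passed the filter on low counts, 0 passed the test, 1 had an unadjusted p below 0.05 (Slc30a1), and 5 were positive and 6 negative. Their median log2 fold was -0.00078, against -0.0086 over all 7661 genes. Slc30a2, an exporter into vesicles, was at 0.34 ± 0.20 (higher in 8 of 12 libraries). Slc39a10, an importer at the cell surface, was at -0.24 ± 0.14 (higher in 2 of 12). Mtf1, the zinc sensor, had a log2 fold of 0.30 ± 0.27 and was higher in 6 of 12 libraries (edgeR p = 0.270). Its level in high cells was 4.61, 26.4 and 59.2 CPM in the lowest, median and highest library, and 4.04, 16.8 and 54.7 CPM in low cells. The 95% interval of the Mtf1 fold ran from 0.843 to 1.81, and its log2 fold was 0.67 in the full-length and -0.04 in the 3′ tag libraries alone. Without Smart-seq / C1 B the log2 fold of Mtf1 was 0.05 and that of Slc30a2 was 0.20. The other 9 genes of metal response and copper handling lay between -0.23 and 0.21 on the log2 scale. Among them Commd1, which acts in copper export, was at 0.21 ± 0.11 (higher in 10 of 12 libraries) and Sod1, the copper and zinc superoxide dismutase, at -0.02. Of 14 iron genes, 9 were positive and 5 negative, with 0 at an unadjusted p below 0.05. Fth1, the heavy chain of the iron store ferritin, was at 0.06 ± 0.06, with a median of 983 CPM in high and 956 CPM in low cells.

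**Figure D2:**
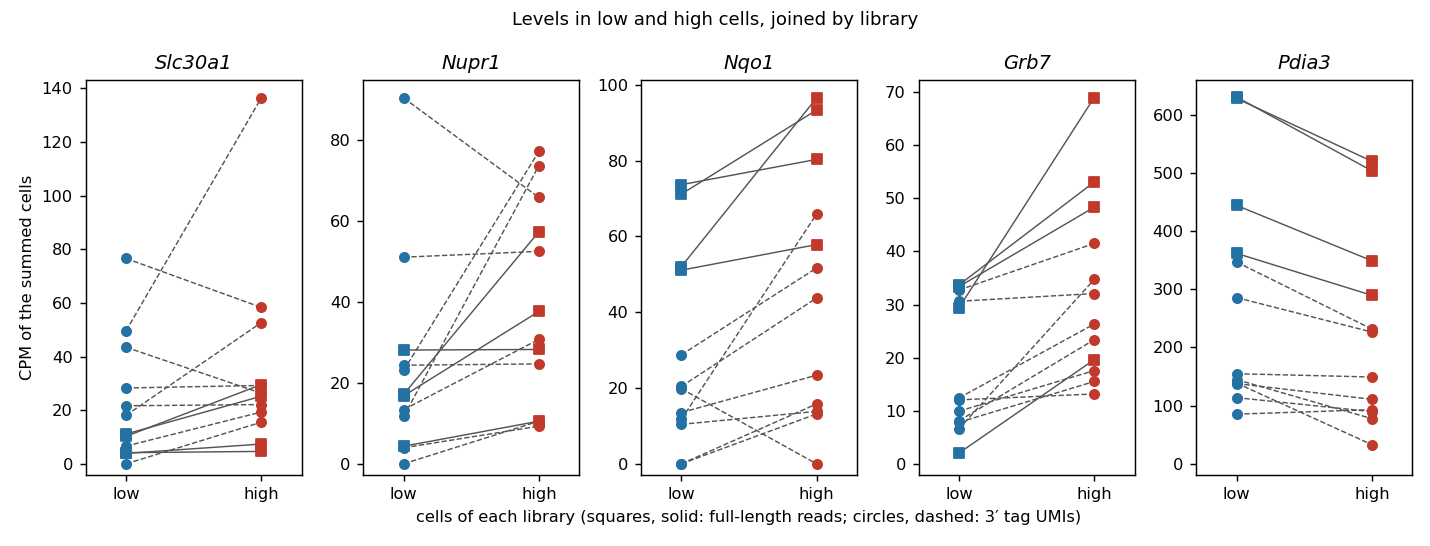
Level of 5 genes in CPM of the summed cells (vertical axis, linear) in low and high cells (horizontal axis), 1 line per library, with squares and solid lines for full-length methods and circles and dashed lines for 3′ tag methods. Slc30a1 is higher in the high cells of 10 of 12 libraries, Nupr1 and Nqo1 of 11, Grb7 of 12 and Pdia3 of 1, while the levels of the 2 groups overlap for every gene.

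No redox gene passed. NRF2 is the transcription factor that drives antioxidant and glutathione genes, and metallothioneins scavenge radicals beside them. Of 26 NRF2 targets and glutathione genes tested, 18 were positive and 8 negative, against 3653 and 4008 over all genes. Their median log2 fold was 0.06, against -0.0086 over all genes. In the 3′ tag libraries alone the median had the other sign, -0.03, with 8 of 23 genes positive. At an unadjusted p below 0.05, 3 genes were higher (Cat, Nqo1 and Prdx2, the last named after its value was seen) and 0 lower. Over all genes these shares were 1.83% and 2.44%. Without Smart-seq / C1 A 5 genes of the list were higher. Nqo1, a quinone reductase and classic NRF2 target, was at 0, 47.7 and 96.5 CPM in the lowest, median and highest library of high cells and at 0, 20.1 and 73.6 CPM in low cells. It was higher in 11 of 12 libraries, and Drop-seq A was the exception, with 0 UMIs in high and 6 in low cells. The fitted log2 fold of Nqo1 was 0.58 ± 0.21 (edgeR p = 0.00812, DESeq2 adjusted p = 0.747). Cat, which encodes catalase, was at 0.39 ± 0.13, with 27.01, 61.03 and 192 CPM in high and 14.9, 53.2 and 180 CPM in low cells (edgeR p = 0.0065, higher in 10 of 12). Other well known NRF2 targets had log2 folds near 0: Hmox1, heme oxygenase, was at 0.06, Txnrd1, thioredoxin reductase, at 0.09, and Gclm, of glutathione synthesis, at 0.05.

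Stress genes gave single values of both signs. Nupr1, a small chromatin protein induced by stress, was at 9.30, 34.2 and 77.2 CPM in the lowest, median and highest library of high cells and at 0, 16.99 and 90.3 CPM in low cells. Its log2 fold was 0.92 ± 0.24, a 1.90-fold difference with a 95% interval of 1.35 to 2.66 (edgeR p = 0.000465, adjusted p = 0.904, DESeq2 adjusted p = 0.0879, edgeR with bias-adjusted deviances adjusted p = 0.0327). Nupr1 was higher in 11 of 12 libraries, MARS-seq A being the exception. Its sums were nearly even in SCRB-seq A (19 UMIs in high against 18 in low cells) and Smart-seq2 A (415 against 406 reads). In CEL-seq2 A (18 against 20 UMIs) the difference rested on the scaling to CPM. More reads did not always come from more cells. Nupr1 was seen in 16 high and 17 low cells of Smart-seq2 B (693 against 212 reads). In Smart-seq / C1 A it was seen in 11 and 12 (284 against 124 reads). Other libraries had more high than low cells with Nupr1, such as SCRB-seq B (12 against 7). The ATF4 list, to which Nupr1 belongs, serves amino acid supply under stress: of its 20 genes 13 were positive and 7 negative, with a median of 0.04. The sign of that median turned with cells ranked by Mt1 alone (-0.03, 9 of 20 positive), with cells thinned to 10000 counts (-0.06, 4 of 11 positive) and in the full-length libraries alone (-0.00064, 13 of 26 positive). Cth, which makes cysteine from cystathionine, was at -0.39 ± 0.13, with a log2 fold of -0.73 in the full-length and 0.0016 in the 3′ tag libraries alone. Sesn2, which restrains growth signalling under stress and is also on the p53 list, was at 0.45 ± 0.16 (higher in 10 of 12). Atf4 itself was at 0.06.

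Of the endoplasmic reticulum genes, Pdia3 and Xbp1 had the smallest p-values, both on the negative side. Pdia3, a disulfide isomerase that folds glycoproteins with calnexin, was at 32.9, 188 and 520 CPM in the lowest, median and highest library of high cells and at 85.3, 220 and 630 CPM in low cells. It was lower in the high cells of 11 of 12 libraries, with CEL-seq2 B the exception (93.0 against 85.3 CPM). Its log2 fold was -0.34 ± 0.09 (edgeR p = 0.000497, adjusted p = 0.904, DESeq2 adjusted p = 0.0879, edgeR with bias-adjusted deviances adjusted p = 0.0363). An exon of Catsper2 overlaps Pdia3 on the opposite strand. Xbp1, a transcription factor of the unfolded protein response, was at -0.51 ± 0.19 (higher in 3 of 12). Of 19 genes of the list 7 were positive and 12 negative, the median was -0.04, and at an unadjusted p below 0.05 4 were lower and 1 higher, against 2.44% and 1.83% over all genes. Without Smart-seq / C1 A the count of lower genes was 1 and the median -0.00021, without SCRB-seq B that count was 2, and with cells ranked within depth classes it was 1. With cells split at the median share 10 genes were positive and 10 negative. The higher one in the 12 libraries was Herpud1, a gene of protein degradation at the reticulum, at 0.74 (edgeR adjusted p = 0.00163 with bias-adjusted deviances, higher in 7 of 12 libraries, named after its value was seen). Heat shock and immediate early genes had 0 of 17 at an unadjusted p below 0.05.

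Hypoxia and glucocorticoids are further known inducers of metallothionein genes. Of 27 glycolysis and hypoxia genes 22 were positive and 5 negative, against 3653 and 4008 over all genes. The median log2 fold of the 27 was 0.07, which ranged from 0.04 to 0.13 over the alternative fits. Pfkp, a phosphofructokinase, had the smallest p of them, with a log2 fold of 0.27 ± 0.11 (edgeR p = 0.0144, higher in 10 of 12). The glucose transporter Slc2a1 was at 0.19 ± 0.10 (higher in 9 of 12) and Hif1a, the hypoxia factor, at 0.01. Of 6 glucocorticoid-responsive genes 5 were positive. Klf9, a direct target of the glucocorticoid receptor, was at 0.25 ± 0.11 (higher in 10 of 12), while Fkbp5, another direct target, was at 0.03. The 16 p53 targets had a median of -0.0053, and Cdkn1a, the cell cycle inhibitor, was at 0.03.

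**Figure D3:**
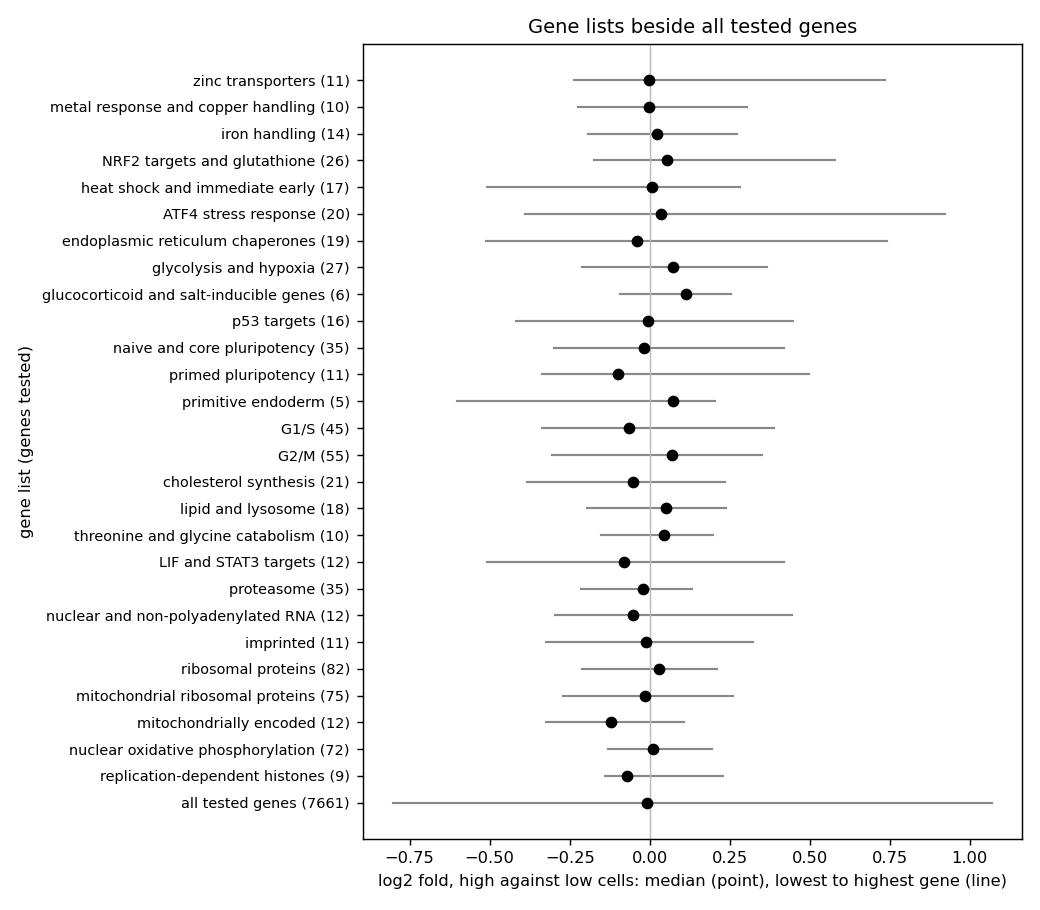
Gene lists (vertical axis, number of genes tested in brackets) by log2 fold of high against low cells (horizontal axis), with the median as a point and the lowest to the highest gene as a line, for lists with at least 5 tested genes. The list medians shown lie between -0.12 and 0.11, and the line for all 7661 tested genes runs from -0.80 to 1.07.

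The main pluripotency factors differed by less than 1.5-fold between high and low cells. Pou5f1, a core factor, had a log2 fold of -0.04 ± 0.07, with a median over libraries of 276 CPM in high and 311 CPM in low cells. Sox2, its partner, was at 0.03 ± 0.07 (281 and 240 CPM), and Nanog, which stabilises the naive state, at 0.04 ± 0.07 (426 and 400 CPM). The naive factors Zfp42, Esrrb and Klf4 were at 0.03 ± 0.07, -0.10 ± 0.08 and -0.06 ± 0.11. All 6 had 95% intervals inside a 1.5-fold change in either direction. Of 35 naive and core genes 17 were positive and 18 negative (median -0.02). The lowest p-values belonged to Tet2, a DNA demethylase, at -0.29 ± 0.11, and Zfp281, at -0.30 ± 0.11. Stat3, the transducer of the LIF signal, was at 0.42 ± 0.16 (higher in 9 of 12), but 10 of the 12 LIF and STAT3 genes were negative. On the primed list, Dnmt3a, a de novo DNA methyltransferase, was at -0.34 ± 0.11, and 5 of 11 genes were positive. Dppa5a, Lefty2, mt-Co1, Mt2, Nanog, Pou5f1, Tdh and Zfp42 share at least 10% of their 31-base words with other transcripts, so how their reads were divided is uncertain. Exons of other genes also overlap Mt2 (Gm45774), Mtf1, Pou5f1, Stat3, Tet2, Dnmt3a, Slc2a1 and Tdh on the opposite strand.

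**Figure D4:**
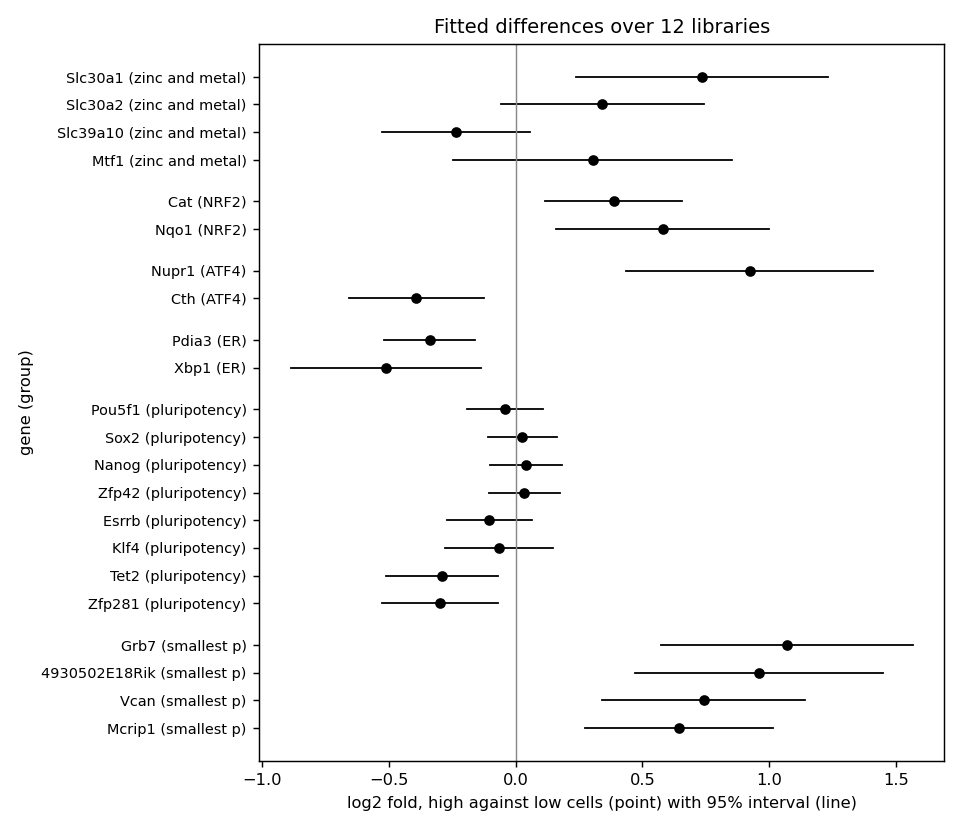
Log2 fold of high against low cells over 12 libraries (horizontal axis) for 22 genes (vertical axis, with the group each belongs to), with the point at the fitted value and the line its 95% interval. The intervals of the 6 pluripotency factors from Pou5f1 to Klf4 span 0 and lie within 1.5-fold, while Grb7, at 1.07, 4930502E18Rik, at 0.96, and Nupr1, at 0.92, lie farthest to the right. None of the 22 passed after adjustment.

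G2/M genes were mostly on the positive side and G1/S genes mostly on the negative side, and none passed. Of 55 G2/M genes 42 were positive and 13 negative, with a median log2 fold of 0.07 that ranged from 0.04 to 0.17 over the alternative fits. At an unadjusted p below 0.05, 8 of them were higher and 1 lower, against 1.83% and 2.44% over all genes. The count of higher genes was 4 without Smart-seq / C1 A, 4 without Smart-seq2 A, 5 without MARS-seq B, 3 in the full-length libraries alone and 2 in the 3′ tag libraries alone. Cenpf, a kinetochore protein of mitosis, was at 0.28 ± 0.09 (edgeR p = 0.0032, higher in 9 of 12), and Kif23, a motor of cytokinesis, at 0.33 ± 0.12 (higher in 10 of 12). Of 45 G1/S genes 11 were positive and 34 negative (median -0.06, from -0.10 to -0.02 over the alternative fits). Without CEL-seq2 A 20 were positive and 26 negative, and in the 3′ tag libraries alone 17 and 25. Pola1, the catalytic subunit of DNA polymerase alpha, was at -0.34 ± 0.14 (higher in 2 of 12). Pold3, the other of the 2 G1/S genes of smallest p, was at 0.30. At an unadjusted p below 0.05, 1 G1/S gene was higher and 1 lower. Without the Drop-seq libraries 41 of 55 G2/M genes were positive, with 6 higher and 0 lower at an unadjusted p below 0.05, and 12 of 46 G1/S genes were positive. Genes of one phase vary together, and genes of the other lists may do so, so such counts are not independent observations.

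Most housekeeping groups had medians close to 0. Median log2 folds were 0.03 for 82 ribosomal protein genes, -0.01 for 75 mitochondrial ribosomal protein genes, 0.0093 for 72 nuclear genes of oxidative phosphorylation and -0.02 for 35 proteasome genes. The 12 mitochondrially encoded genes had a median of -0.12, with 3 positive and 9 negative. Of 21 cholesterol synthesis genes 7 were positive, and of 18 lysosome and lipid genes 13 were positive with 0 at an unadjusted p below 0.05. Tdh, threonine dehydrogenase, on which the growth of mouse embryonic stem cells depends, was at 0.20 ± 0.07 (higher in 8 of 12). Psmd4, a ubiquitin receptor of the proteasome, was at -0.21 ± 0.07, lower in 11 of 12 libraries. Tfap2c, on the trophectoderm list of 3 tested genes, was at 0.52 ± 0.20 and higher in 7 of 12 libraries. Its adjusted p was 0.0481 in edgeR with bias-adjusted deviances, 0.9996 in the default edgeR fit and 0.871 with DESeq2. On the same list Tead4 was at 0.41 and Eomes at -0.29. Lrp2, on the primitive endoderm list of 5, was at -0.60 ± 0.27. It was the 1 negative gene of that list beside 4 positive ones, among them Apoe at 0.20, and the list median was 0.07.

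The smallest p of all belonged to Grb7 (ENSMUSG00000019312, chr11:98446394-98455373), which encodes an adaptor that binds activated receptor tyrosine kinases. It and the genes that follow were singled out after their values were seen. Its level in high cells was 13.2, 29.2 and 68.998 CPM in the lowest, median and highest library, and in low cells 2.03, 12.2 and 33.7 CPM. Grb7 was higher in the high cells of 12 of 12 libraries, from 32.1 against 30.6 CPM in CEL-seq2 A to 19.6 against 2.03 CPM in Smart-seq / C1 A. In Smart-seq / C1 A the 148 and 15 reads of Grb7 came from 7 high and 5 low cells. In CEL-seq2 A (11 UMIs in high against 12 in low cells) and MARS-seq A (2 against 2) the difference rested on the scaling to CPM. The log2 fold was 1.07 ± 0.25, a 2.10-fold difference with a 95% interval of 1.49 to 2.97 (edgeR p = 9.54e-05, adjusted p = 0.731, DESeq2 adjusted p = 0.0879, edgeR with bias-adjusted deviances adjusted p = 0.00374). In the 8 tag libraries the sums held 2 to 27 UMIs, so most of the counts came from the 4 full-length libraries. The same sign in all 12 libraries was found for 3 of 7661 genes (0.0392%): Grb7, Tgs1, which caps small nuclear RNAs, at -0.40, and Gm6382 at -0.64. Signs drawn at random would agree in 12 libraries at a rate of 0.000488, so this share was no larger than that of random signs.

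A further 4 genes had small p-values without passing. The uncharacterised 4930502E18Rik was at 0.96 ± 0.24 (edgeR adjusted p = 0.904, higher in 9 of 12). Vcan, versican, a proteoglycan of the extracellular matrix, was at 0.74 ± 0.20 (adjusted p = 0.904, higher in 11 of 12), with medians of 29.6 CPM in high and 19.2 CPM in low cells. In MARS-seq A (2 UMIs of Vcan in high against 2 in low cells) the difference rested on the scaling to CPM. Mcrip1, a regulator of the CtBP corepressor, was at 0.64 ± 0.18 (higher in 11 of 12). Myo1f, an unconventional myosin, was at -0.68 ± 0.20 (higher in 2 of 12). All 4 were among the 47 genes called with bias-adjusted deviances, as were Grb7, Slc30a1, Nupr1, Pdia3, Herpud1 and Cth. Of the 47, 16 had the same sign in at least 10 of 12 libraries, and in the default fit their unadjusted p-values ran from 9.54e-05 to 0.179. The median expression of the 47 was 4.91 average log2 CPM, against 5.67 over all tested genes.

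The difference between high and low cells was also compared between full-length and 3′ tag methods. No gene passed this interaction test in edgeR (0 of 7661, 0% called, 234 or 3.05% at an unadjusted p below 0.05), nor in DESeq2 (311 at an unadjusted p below 0.05) or with bias-adjusted deviances (240). Slc30a1 had a log2 fold of 0.95 in the 4 full-length libraries alone and did not pass the filter on low counts in the tag libraries alone, and the interaction was 0.42 ± 0.49 (edgeR adjusted p = 1). For Grb7 it was 0.45 ± 0.50, for Nupr1 0.22 ± 0.49, for Nqo1 -0.51 ± 0.43 and for Pdia3 0.05 ± 0.18 (all with an adjusted p of 1). Pdia3, measurable in both, was at -0.32 in full-length and -0.39 in tag libraries. Cth, named after its value was seen, had an interaction of -0.74 ± 0.24 (adjusted p = 1). Without a filter on low counts 9 genes passed the interaction test. Psap, P4ha3, Rhox5 and Lefty1 were on the positive side, and Zscan4d, Zscan4c, Gm2016, Gm5662 and Gm12794 on the negative side. Psap and Lefty1 were also tested with the filter and did not pass. Zscan4 genes mark the rare 2-cell-like state, none of whose 24 genes in the table passed the filter.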

How the data were processed

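Single-cell RNA-seq of J1 mouse embryonic stem cells was analysed as 12 libraries, 2 for each of 6 methods. The authors deposited whole-number counts per gene and cell for 38924 mouse genes and 92 spike-ins. Per the submitters' processing notes, bcl2fastq and STAR 2.4.0 with mm10 were used. The counting of Smart-seq reads, the annotation and the use of strand are not given in the sources used here. Columns were mapped to cells by name and cells to libraries by label. GENCODE M21 gave symbols for 37607 identifiers, and 1317 kept their identifiers. All cells were kept, without a search for doublets.

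Cells were ranked within each library by the share of endogenous counts from Mt1 and Mt2. Counts of high and of low cells were summed (24 sums, 165870 to 11429894 counts). Genes kept by filterByExpr were scaled by TMM (factors 0.733 to 1.29) and fitted with edgeR 4.0.16 (robust quasi-likelihood, library as a block, R 4.3.3), leaving out Mt1 and Mt2, with Benjamini-Hochberg adjustment over 7661 genes and a threshold of 0.05. The common biological coefficient of variation was 0.207, with 11 residual and a median of 27.1 prior degrees of freedom. The pairing comes from the cells, since high and low cells of a library share its preparation. Library differences on the log2 scale add 1 count per sum. Cell measures were compared by an exact two-sided sign-flip permutation over 4096 sign patterns, whose smallest p is 0.000488. Alternatives used DESeq2 1.42.0, limma 3.58.1, other rankings, cells thinned to 10000 counts, and libraries left out. Scripts were tested on simulated data. Copies were screened by 31-base words shared between GENCODE transcripts on either strand.

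Genes were named if they passed at 4 or more average log2 CPM with 1 sign in at least 10 of 12 libraries (0 genes did), as the 2 of smallest p and the 1 of highest expression of each list, or as Mtf1, Slc30a1, Mt3 and the 6 pluripotency factors. Others are said to be chosen after their values were seen, or illustrate a list. Members and lists were chosen with earlier results of these data known.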

Additional observations from a re-analysis of the deposited data

Results flagged for a closer look

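Among 42 sets of library values examined (5 cell measures, 15 genes and the metallothionein ratio, each in the 4 full-length and the 8 tag libraries), 5 single libraries stood far from the rest. Chance flags about 1 in 20 such sets. All values are log2 differences of high minus low cells with 1 count added per sum. Nqo1 was at -2.58 in Drop-seq A, where the other 7 tag libraries lay between 0.37 and 2.16. Mcrip1 was at -1.13 in CEL-seq2 A against 0.47 to 1.86, and at 1.02 in Smart-seq / C1 B against 0.33 in the other 3 full-length libraries. 4930502E18Rik was at 2.72 in CEL-seq2 B against -0.01 to 0.78. Both MARS-seq libraries held 0 counts of 4930502E18Rik in high and in low cells, so their values in that range come from the added count alone. Zfp42 was at 0.56 in Drop-seq A against -0.10 to 0.21.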

How the results depend on the processing

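The count of 0 genes that differ between high and low cells was the same with DESeq2, limma, thinned cells, other rankings, other cell fractions, joined Drop-seq barcodes, either kind of method alone, and each library left out in turn (0 to 0 genes). It moved to 47 with bias-adjusted deviances, an alternative chosen after seeing the data, and to 2 with no filter on low counts. No filter moved the interaction count from 0 to 9. In these moves the cause was not tested. The fit with no replicate block, in which the pairing of high and low cells by library is ignored, called 0 genes, with 74 at an unadjusted p below 0.05 against 327. The call on log2 total counts per cell (-0.0421) was lost with means over cells (-0.0634), thinned cells (-0.0710), ranking within depth classes (-0.0069), more cells per group (-0.0470), fewer cells per group (-0.0218), Mt2 alone (-0.0331), joined barcodes (-0.0592) and without Drop-seq (-0.0353), and turned with Mt1 alone (0.0131). Leaving out each library in turn gave -0.0474 to -0.0317, with adjusted p from 0.0293 to 0.0977 by the exact permutation test. The cause was not tested. Of 107 named genes, 80 kept their sign in up to 27 alternative fits and 27 changed it in at least 1. Intervals were widest for weakly expressed genes, and low sums of a few UMIs in MARS-seq and Drop-seq leave single-library values uncertain.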
